A study of Homo sapiens with 8 samples.

Results

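The genes described here are FN1, VIM, TGFBI, MFAP5, COL1A1, SRPX, ITGA5, ITGAV and SNAI2, which are 9 of the 25369 genes in the deposited expression table. They were taken by symbol as matrix and filament genes of mesenchymal type, fibronectin-binding integrins and the transcription factor SNAI2. They were chosen by their RPKM values in these same libraries, with the difference between the groups known, so their differences between groups are a description and no independent support. RNA was sequenced from EPC2-hTERT cells, a human esophageal epithelial line immortalised with telomerase. The HIF1A-KD group carried a lentiviral short hairpin RNA against HIF1A, the gene for the subunit of HIF-1 that oxygen controls, and the shCtrl group a control hairpin, with 4 libraries numbered 1 to 4 in each. All cultures grew to confluence on membranes over 2 days, were held in medium with 1.8 mM calcium chloride for 5 days and were exposed to air for 4 days, conditions under which keratinocytes stratify. A vehicle and the hydroxylase inhibitor dimethyloxalylglycine are named in the treatment protocol and assigned to no library, and each group is 1 stable line, and the sources used here give neither its hairpin sequence nor its number of clones.

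Fibronectin, encoded by FN1, is a secreted glycoprotein that cells assemble into fibrils by pulling on it through integrins, chiefly the pairing of ITGA5 with ITGB1 and the ITGAV integrins. Vimentin is the intermediate filament of mesenchymal cells and also appears in migrating or cultured keratinocytes. Gain of fibronectin, vimentin and fibrillar collagen with loss of E-cadherin is the usual sign of epithelial-mesenchymal transition (EMT), a programme that transcription factors such as SNAI2 can drive, and SNAI2 is also present in basal keratinocytes.

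Annotated start regions are shown because hypoxia response elements can lie in promoters. Windows from 250 bases before to 50 bases after the start came from RefSeq on build GRCh38.p14, which matched 6 of the 9 genes (FN1, VIM, TGFBI, SRPX, ITGA5 and ITGAV). The windows shown are of the matched genes whose groups did not overlap. MFAP5 and COL1A1 also had groups that did not overlap, and they were not matched. Capitals mark matches, on either strand, to the hypoxia response core (ACGTG or GCGTG), to the E-box bound by SNAI2 (CAGGTG) and to the cAMP response element (TGACGTCA). ACGTG is also part of the E-box CACGTG.
FN1, chr2:215436019-215436318, minus strand: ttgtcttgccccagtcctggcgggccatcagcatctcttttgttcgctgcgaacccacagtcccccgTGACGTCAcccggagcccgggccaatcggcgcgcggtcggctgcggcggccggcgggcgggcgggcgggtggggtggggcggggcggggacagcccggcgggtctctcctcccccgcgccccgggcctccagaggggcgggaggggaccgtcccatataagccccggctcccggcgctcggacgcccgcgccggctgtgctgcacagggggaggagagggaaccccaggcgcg
TGFBI, chr5:136028738-136029037, plus strand: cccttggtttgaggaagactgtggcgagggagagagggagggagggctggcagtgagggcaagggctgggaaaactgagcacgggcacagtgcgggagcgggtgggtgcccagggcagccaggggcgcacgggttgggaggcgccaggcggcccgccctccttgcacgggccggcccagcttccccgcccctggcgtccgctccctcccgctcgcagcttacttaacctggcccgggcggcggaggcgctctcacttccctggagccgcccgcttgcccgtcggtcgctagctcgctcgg
SRPX, chrX:38220822-38221121, minus strand: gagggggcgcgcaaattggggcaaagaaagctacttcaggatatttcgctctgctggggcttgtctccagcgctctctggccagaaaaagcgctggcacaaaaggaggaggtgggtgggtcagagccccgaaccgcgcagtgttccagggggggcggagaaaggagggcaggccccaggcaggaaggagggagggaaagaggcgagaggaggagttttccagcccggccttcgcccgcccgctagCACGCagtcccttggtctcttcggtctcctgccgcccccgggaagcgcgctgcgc
VIM, chr10:17227991-17228290, plus strand: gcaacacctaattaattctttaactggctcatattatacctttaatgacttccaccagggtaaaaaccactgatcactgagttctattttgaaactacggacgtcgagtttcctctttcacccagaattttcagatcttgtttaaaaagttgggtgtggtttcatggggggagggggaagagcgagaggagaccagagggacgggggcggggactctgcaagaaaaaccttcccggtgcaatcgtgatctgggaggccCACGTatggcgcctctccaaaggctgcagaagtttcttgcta
The hypoxia response core was present for VIM, SRPX, ITGA5 and ITGAV, and it is in 48.4% of all 35116 windows. The FN1 and TGFBI windows held no such match. The FN1 window held the cAMP response element, found in 1.85% of windows, and none of the 6 genes had the CAGGTG E-box, found in 20.6%. A match is a run of letters and not evidence of binding, and no match says only that the letters are not in this window.

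Libraries held 38068729 to 65326907 reads in HIF1A-KD and 43205845 to 52401547 reads in shCtrl, as worked back from the deposited values. HIF1A itself held 27.6, 19.0, 54.8 and 45.04 RPKM (reads per kilobase of gene length, scaled to the library total) in HIF1A-KD 1 to 4, against 95.2, 51.4, 89.8 and 122 RPKM in shCtrl 1 to 4. HIF1A-KD 3 had the most HIF1A of its group and lay above shCtrl 2. HIF1A was not called in the unpaired fit used below. The authors' deposited table gives it a moderated log2 ratio of −1.29 at an adjusted p under 0.05. Basal squamous markers were abundant in both groups, with 6 of 6 tested and a summed level of 9667 to 11922 RPKM in HIF1A-KD and 8190 to 12212 RPKM in shCtrl. The 9 fibroblast markers summed to between 0.0699 and 0.213 RPKM in HIF1A-KD and between 0.0678 and 1.09 RPKM in shCtrl, and THY1 was at 0 in all libraries. Suprabasal markers (KRT4, KRT13, IVL, CRNN, SPRR3 and TGM1) summed to 8534 to 12042 RPKM in HIF1A-KD and 1902 to 6780 RPKM in shCtrl, so this sum did not overlap between the groups. Of these 6 genes 5 had a log2 change above 0, and 0 were called in the unpaired or the blocked fit used below. A single gene reached 6660 RPKM, so abundant genes weigh most in the sum. The part of this sum in the results below was not tested. In bulk RNA, fewer cells of a type and less RNA per cell cannot be told apart.

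FN1 was the gene of the 9 with the largest difference. FN1 (chromosome 2, 216225179 to 216300791, minus strand, hg19) held 8.81, 7.90, 20.9 and 8.63 RPKM in HIF1A-KD 1 to 4, against 78.9, 82.7, 91.2 and 88.3 RPKM in shCtrl 1 to 4. The shCtrl libraries lay close together and far above every HIF1A-KD library, and HIF1A-KD 3 stood above the other 3 of its group. The level in HIF1A-KD was 13.5% of that in shCtrl (11.6 ± 6.23 and 85.3 ± 5.55 RPKM, SD, n = 4 each). These values rest on 2947 to 8847 reads per HIF1A-KD library and 32064 to 42904 reads per shCtrl library. The log2 change was −3.00 (SE 0.29) and passed limma over all 11899 genes tested (adjusted p = 0.0157). In fits that left out 1 library it stayed called without HIF1A-KD 3 (adjusted p = 0.000213, limma) and shCtrl 1 (0.0493), and ran from 0.0523 to 0.0761 without HIF1A-KD 1, 2 or 4 or shCtrl 2, 3 or 4.

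The other secreted matrix genes differed in the same direction by smaller amounts. TGFBI (chromosome 5, 135364584 to 135399507, plus strand, hg19) encodes a secreted adhesion protein that binds collagen and integrins. It held 223, 259, 232 and 212 RPKM in HIF1A-KD 1 to 4, against 291, 567, 464 and 396 RPKM in shCtrl 1 to 4. The groups did not overlap, but shCtrl 1 lay near the HIF1A-KD libraries and the spread was far wider in shCtrl (232 ± 20.1 RPKM in HIF1A-KD and 429 ± 116 RPKM in shCtrl, SD, n = 4 each). MFAP5 (chromosome 12, 8798540 to 8815433, minus strand, hg19) encodes a glycoprotein of elastin-associated microfibrils. It held 10.7, 11.2, 4.43 and 6.49 RPKM in HIF1A-KD 1 to 4, against 20.8, 20.05, 14.6 and 15.0 RPKM in shCtrl 1 to 4. In both groups libraries 1 and 2 were above libraries 3 and 4, and the groups did not overlap.

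COL1A1 and SRPX also had groups that did not overlap. COL1A1 (chromosome 17, 48261457 to 48279000, minus strand, hg19) encodes the alpha-1 chain of type I collagen. It held 14.1, 14.2, 19.2 and 14.8 RPKM in HIF1A-KD 1 to 4, against 22.5, 23.3, 21.2 and 27.7 RPKM in shCtrl 1 to 4. The gap between the groups was narrow, from HIF1A-KD 3 to shCtrl 3. COL1A2, whose product pairs with that of COL1A1 in type I collagen, did not exceed 0.0162 RPKM in any library, and COL3A1 did not exceed 0.0270 RPKM. SRPX (chromosome X, 38008588 to 38080177, minus strand, hg19), a gene for a sushi-repeat protein, held 3.70, 4.33, 4.51 and 4.28 RPKM in HIF1A-KD 1 to 4, against 11.4, 15.3, 11.9 and 8.10 RPKM in shCtrl 1 to 4. It was the lowest of the 9 genes, with 310 to 538 reads per HIF1A-KD library and 736 to 1262 per shCtrl library, and its HIF1A-KD libraries were nearly level.

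VIM (chromosome 10, 17270258 to 17279592, plus strand, hg19) held 11.2, 30.1, 19.3 and 19.5 RPKM in HIF1A-KD 1 to 4, against 48.7, 65.1, 51.3 and 55.1 RPKM in shCtrl 1 to 4. In both groups library 1 was the lowest and library 2 the highest, and every HIF1A-KD library was below every shCtrl library. The level in HIF1A-KD was 36.4% of that in shCtrl, close to the 35.98% of SRPX and well above the 13.5% of FN1.

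**Figure D1:**
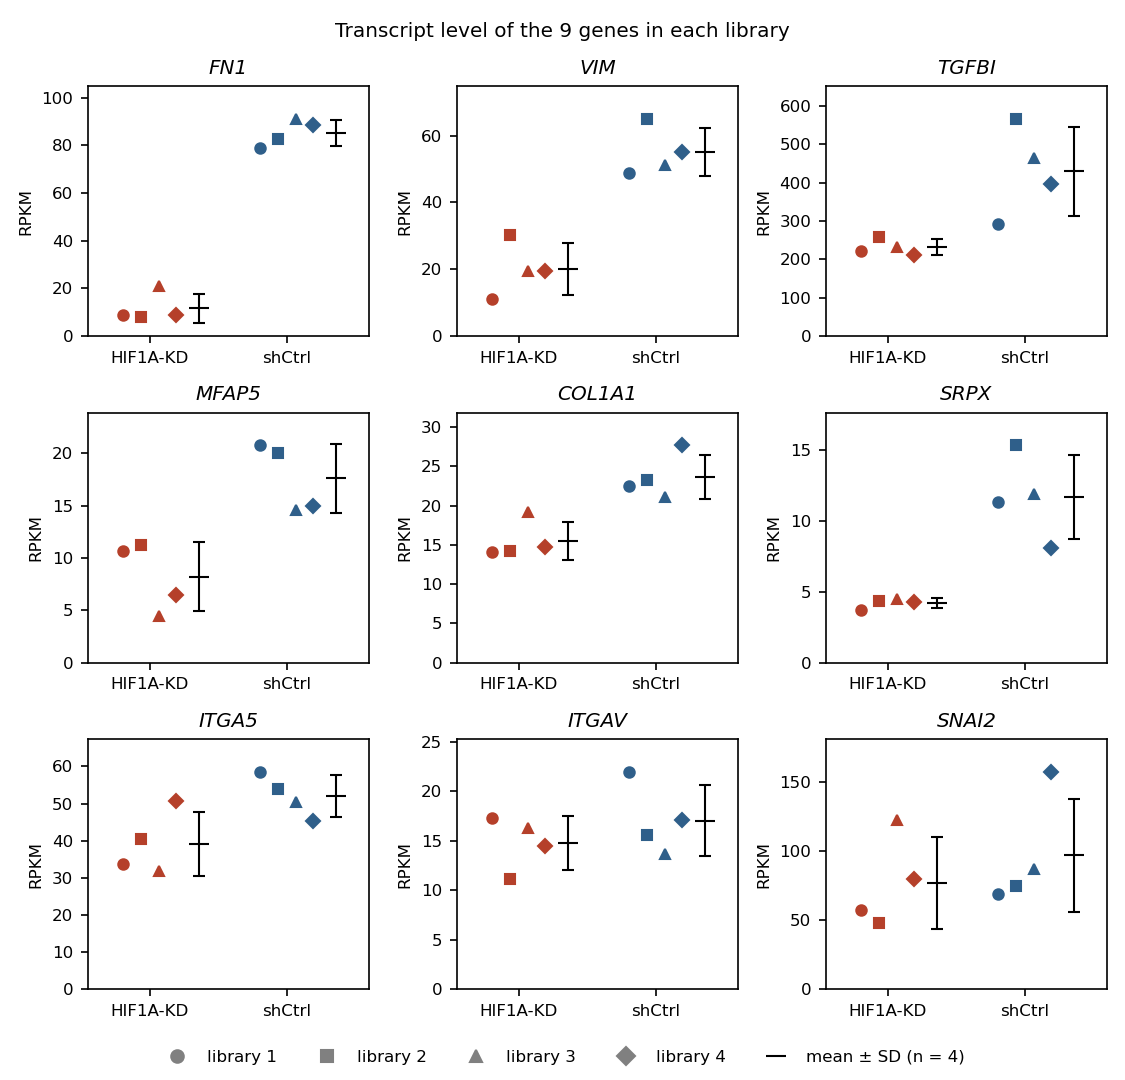
RPKM (vertical axis, from 0) of the 9 genes in each library of HIF1A-KD and shCtrl, with a symbol for each library number and the mean ± SD (n = 4) beside each group. FN1, VIM, TGFBI, MFAP5, COL1A1 and SRPX do not overlap between the groups, and ITGA5, ITGAV and SNAI2 do.

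The fibronectin receptors and SNAI2 overlapped between the groups. ITGA5 (chromosome 12, 54789045 to 54813050, minus strand, hg19), the integrin chain specific for fibronectin, held 33.7, 40.3, 31.7 and 50.7 RPKM in HIF1A-KD 1 to 4, against 58.5, 54.0, 50.4 and 45.2 RPKM in shCtrl 1 to 4. HIF1A-KD 4 lay above shCtrl 4, and the log2 change of −0.43 (SE 0.19) did not pass (adjusted p = 0.630, limma). ITGAV (chromosome 2, 187454790 to 187545629, plus strand, hg19), the chain shared by integrins that bind fibronectin, vitronectin and latent TGF-beta, held 17.3, 11.1, 16.3 and 14.5 RPKM in HIF1A-KD 1 to 4, against 21.97, 15.5, 13.6 and 17.1 RPKM in shCtrl 1 to 4. Its log2 change was −0.20 (SE 0.21, adjusted p = 0.940, limma), and among libraries numbered 3 and 4 alone it was 0.0087. SNAI2 (chromosome 8, 49830239 to 49833999, minus strand, hg19) held 57.7, 48.3, 123 and 79.8 RPKM in HIF1A-KD 1 to 4, against 68.8, 74.8, 87.1 and 158 RPKM in shCtrl 1 to 4. The spread within each group was wider than the gap between the group means, and the log2 change of −0.34 (SE 0.35) did not pass (adjusted p = 0.940, limma).

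All 9 genes passed the filter on low values, being at 3.70 RPKM or more in every library, and all 9 log2 changes were below 0, as were 41.3% of all tested genes, with a median of −0.85 against 0.064 over all tested genes. Groups did not overlap for 6 of the 9, each lower in HIF1A-KD, against 2.13% of all tested genes. In the unpaired limma fit, which called 0.0420% of tested genes (3 higher and 2 lower, or 3 higher and 5 lower with libraries scaled by median of ratios), FN1 was the only 1 of the 9 called (0.0168% of tested genes were called lower). When the library number entered as a block, a fit that called 1.83% of tested genes (1.09% lower), FN1 (adjusted p = 0.00469), VIM (0.0163), SRPX (0.0224), MFAP5 (0.0294) and TGFBI (0.0407) fell, each lower in 4 of 4 numbers, which held for 10.7% of tested genes. Being lower in 4 of 4 follows for any gene whose groups do not overlap. The labels do not state that the number pairs libraries, and for numbers 3 and 4 the pairing is uncertain. COL1A1 did not pass (adjusted p = 0.0920, limma with the block) although it too was lower in 4 of 4, and neither did ITGA5 (0.229), ITGAV (0.484) or SNAI2 (0.468). These shares of calls are background and nothing is read from the counts, since the genes were picked with this contrast known.

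The calls of the blocked fit varied with the number left out. Without number 2 that fit called 1 of all 11899 tested genes and 0 of the 9, while the log2 changes were −2.87 for FN1, −1.67 for VIM, −1.29 for SRPX, −1.28 for MFAP5 and −0.76 for TGFBI. Without number 1, FN1, VIM and TGFBI were called; without number 3, FN1, VIM, MFAP5, COL1A1 and SRPX; and without number 4, FN1, VIM and SRPX. Libraries numbered 1 and 2 also lay on the other side of 0 from those numbered 3 and 4 on the leading axis of variance (41.9%), and no label gives a reason for that. The log2 change within numbers 1 and 2 and within numbers 3 and 4 was −3.26 and −2.73 for FN1, −1.61 and −1.45 for VIM, and −1.70 and −1.14 for SRPX. It was −0.76 and −0.95 for TGFBI, −0.89 and −1.45 for MFAP5, and −0.69 and −0.52 for COL1A1. The groups did not overlap for these 6 genes, so the same direction within both sets was fixed in advance and adds no support. The authors' deposited table, made from the same libraries, lists 6 of the 9 genes at an adjusted p under 0.05 and a ratio below 1, where 5.08% of its 13626 genes stand, with moderated log2 ratios from −2.73 for FN1 to −0.64 for COL1A1. For ITGA5, SNAI2 and ITGAV the authors' deposited table gives adjusted p of 0.124, 0.271 and 0.298.

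**Figure D2:**
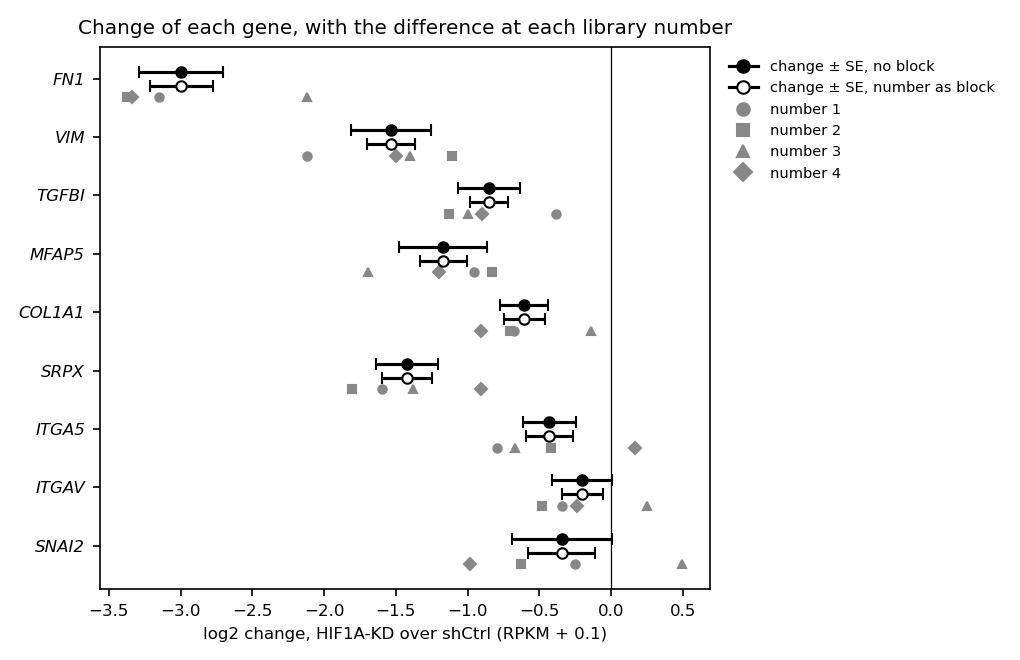
Log2 change of HIF1A-KD over shCtrl (horizontal axis, log2 of RPKM + 0.1) for the 9 genes, with the SE without a block (filled) and with the library number as a block (open), and grey symbols for the difference at each number. FN1 lies at −3.00, and the differences of ITGA5, ITGAV and SNAI2 fall on both sides of 0.

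The order of the levels, which RPKM allows since it is per length, differed between the groups mainly through FN1. In HIF1A-KD the order from high to low was TGFBI, SNAI2, ITGA5, VIM, COL1A1, ITGAV, FN1, MFAP5 and SRPX, so FN1 was the 7th of 9, and in shCtrl it was the 3rd. In HIF1A-KD the ranges of neighbours in this order overlapped except between TGFBI and SNAI2 and between ITGA5 and VIM. In shCtrl the order was TGFBI, SNAI2, FN1, VIM, ITGA5, COL1A1, MFAP5, ITGAV and SRPX. There the ranges of neighbours lay apart between TGFBI and SNAI2, FN1 and VIM, ITGA5 and COL1A1, and COL1A1 and MFAP5, and overlapped otherwise. FN1 lay above ITGA5 in every shCtrl library and below it in every HIF1A-KD library.

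Whether the other 8 genes moved with FN1 was then read within the groups, which leaves out the difference between them. Each library was expressed as its log2 deviation from the mean of its own group, and likeness to FN1 was the root mean square difference of these deviations over the 8 libraries. With 4 libraries a group no correlation across libraries was computed. A gene with no deviation at all would lie at 0.40 from FN1, and 24.5% of tested genes lay nearer than that. Of the 8 genes, COL1A1 at 0.30 and SNAI2 at 0.35 were nearer than this flat profile. That is 2 of 8, close to the 24.5% of all tested genes, so nothing is read from the count. Only 2.98% of tested genes were nearer to FN1 than COL1A1 and 10.9% nearer than SNAI2. The deviations of COL1A1 and SNAI2 had the sign of that of FN1 in 7 and 6 of the 8 libraries, against a median of 4 over tested genes. Such agreement was not rare, since 16.8% of tested genes had the same sign in 7 or more libraries and 28.2% in 6 or more. ITGAV (0.42), SRPX (0.45), TGFBI (0.47), ITGA5 (0.55), VIM (0.57) and MFAP5 (0.78) were farther off than a flat profile, and 85.0% of tested genes were nearer than MFAP5.

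HIF1A-KD 3 made up most of the deviation of FN1 within the groups. In that library the deviation was 0.97 for FN1, 0.76 for SNAI2 and 0.31 for COL1A1 on the log2 scale. It was 0.16 for ITGAV, 0.10 for SRPX, 0.03 for VIM and 0.0092 for TGFBI, whereas MFAP5 was at −0.78 and ITGA5 at −0.28. HIF1A was also highest in HIF1A-KD 3 among the HIF1A-KD libraries, and its part in these values was not tested. Without HIF1A-KD 3 the flat profile itself lay at 0.076 from FN1, so FN1 hardly varied among the other 7 libraries and the comparison with a flat profile could not show likeness. The distance to FN1 was then 0.13 for COL1A1 and 0.36 for SNAI2. Leaving out any other single library left 2 or 3 genes nearer than a flat profile. Among the genes other than FN1 the nearest pair was TGFBI and SRPX (0.252, same sign in 7 of 8 libraries), with COL1A1 and ITGAV about as near (0.255). MFAP5 and SNAI2 were the farthest apart (0.88, same sign in 1 of 8). These pairs were not set beside a flat profile, so a small distance can mean only that both genes varied little. VIM and FN1 had the same sign in 4 of 8 libraries, the median over all tested genes.

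**Figure D3:**
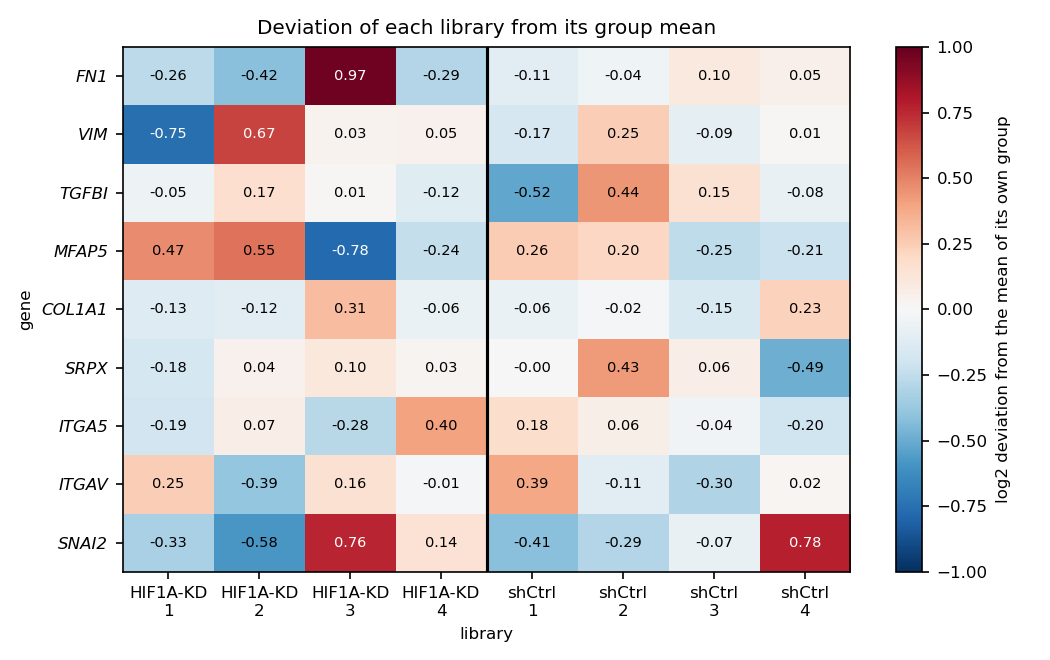
Log2 deviation of each library (columns) from the mean of its own group for the 9 genes (rows), red above and blue below the mean. FN1, SNAI2 and COL1A1 are the farthest above their mean in HIF1A-KD 3, where only MFAP5 (−0.78) and ITGA5 (−0.28) are below it. The VIM row is set by HIF1A-KD 1 and 2 (−0.75 and 0.67).

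Over the whole profile, in which the difference between groups counts too, the genes nearest to FN1 outside the 9 were PRB2 (0.47), PRB1 (0.51), MYL9 (0.63), MME (0.75) and IL1B (0.77), among genes with a mean of at least 5 RPKM over the 8 libraries. SRPX (0.91) and VIM (0.92) were the nearest of the 9, with 0.210% and 0.227% of tested genes nearer, and a flat profile lay at 1.55. The 9 genes were chosen with the difference between the groups known, so nothing is read from these ranks. Within the groups SRPX (0.45) and VIM (0.57) were both farther from FN1 than a flat profile (0.40). MYL9, a regulatory light chain of myosin, held 2.95, 9.05, 8.88 and 5.05 RPKM in HIF1A-KD 1 to 4, against 31.7, 38.1, 26.2 and 23.3 RPKM in shCtrl 1 to 4. IL1B, the cytokine interleukin-1 beta, held 107, 127, 175 and 108 RPKM in HIF1A-KD 1 to 4, against 384, 368, 297 and 505 RPKM in shCtrl 1 to 4. MME, which encodes the surface peptidase neprilysin, averaged 1.86 ± 0.63 RPKM in HIF1A-KD and 11.6 ± 5.43 RPKM in shCtrl (SD, n = 4 each). PRB1 and PRB2 are near-identical salivary proline-rich protein genes, so reads may be split between them.

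Other genes of the matrix, adhesion and EMT programmes were counted in 8 lists holding 112 distinct tested genes. The lists were chosen with earlier results of these data known, so the counts are a description and nothing is read from them. In the unpaired fit 0 were called (limma; 0 also with limma-voom on whole reads), and with the number as a block 9 were, all lower, where the background of lower calls is 1.09%. Without number 2 that fit called 1 of all 11899 tested genes and 0 of these 9, whose log2 changes then included −2.37 for MYL9, −1.44 for TPM1 and −1.33 for IGFBP7. The list of other mesenchymal filament and surface markers had the lowest median, at −0.56 over 10 tested genes, of which 9 were below 0, against 0.064 over all tested genes. MYL9 fell (log2 change −2.29, adjusted p = 0.0253, limma with the block), as did the actin-binding tropomyosin gene TPM1 (−1.52, 0.00435) and NT5E, which encodes the surface ectonucleotidase CD73 (−1.05, 0.0285). TPM1 held 15.9, 17.4, 31.8 and 31.2 RPKM in HIF1A-KD 1 to 4, against 47.1, 58.0, 78.7 and 86.3 RPKM in shCtrl 1 to 4. The hyaluronan receptor gene CD44, abundant in both groups, had a log2 change of −0.11.

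Matrix glycoproteins and proteoglycans had 13 of 19 tested genes below 0 and a median of −0.26. IGFBP7, a secreted growth factor-binding protein, fell (40.2 ± 8.81 RPKM in HIF1A-KD and 100.1 ± 13.9 RPKM in shCtrl, SD, n = 4 each; adjusted p = 0.0224, limma with the block). The proteoglycan gene SPOCK1 (log2 change −1.22) and the follistatin-like gene FSTL1 (−0.92) also fell in the blocked fit. MFAP2, the abundant relative of MFAP5, had a log2 change of −0.26 (adjusted p = 0.280, limma with the block). Of 10 tested collagens 5 were below 0 and 0 were called, with a median of 0.073, which was −0.088 in libraries 1 and 2 alone, 0.20 in libraries 3 and 4 alone and 0.0024 with median-of-ratios scaling. COL7A1, the anchoring fibril collagen and the most abundant of them, held 62.2 ± 19.2 RPKM in HIF1A-KD and 63.3 ± 22.8 RPKM in shCtrl (SD, n = 4 each).

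Other integrin subunits had 7 of 9 tested genes below 0, a median of −0.14 and 0 called. ITGB1, the partner of ITGA5 in the fibronectin receptor, held 116, 154, 269 and 278 RPKM in HIF1A-KD 1 to 4, against 117, 196, 279 and 258 RPKM in shCtrl 1 to 4. The groups overlapped almost fully, and the spread among libraries of a group was far wider than the difference between the means. Crosslinking and turnover genes had 13 of 21 below 0 and a median of −0.25. The gene for the collagen-modifying lysyl hydroxylase PLOD3 was the only 1 called (log2 change −0.73, adjusted p = 0.0495, limma with the block). Without the block it did not pass (adjusted p = 0.227, limma). The abundant protease gene MMP14 (−0.25) and the inhibitor gene TIMP1 (−0.50) did not pass.

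Of 10 other EMT transcription factors 4 were tested, 2 above 0 and 2 below, with a median of 0.20 and 0 called. KLF8 (4.64 ± 1.75 RPKM in HIF1A-KD and 2.96 ± 1.52 RPKM in shCtrl) and TWIST2 (4.34 ± 1.94 RPKM in HIF1A-KD and 3.02 ± 1.38 RPKM in shCtrl, SD, n = 4 each) were the most abundant. The epithelial counterpart list had 14 of 21 genes above 0 and a median of 0.10, close to that of all genes. CDH1, which encodes the E-cadherin that is lost in EMT, was its only call, and it fell as FN1 and VIM did. CDH1 held 52.9, 79.8, 116 and 132 RPKM in HIF1A-KD 1 to 4, against 113, 145, 188 and 189 RPKM in shCtrl 1 to 4 (log2 change −0.79, adjusted p = 0.0318, limma with the block; 0.545 without). The keratin genes KRT5 (−0.06) and KRT14 (0.13) did not pass. Of 18 tested genes of the TGF-beta pathway 15 were below 0, with a median of −0.14. PMEPA1, a target that feeds back on the pathway, fell (14.7 ± 2.05 RPKM in HIF1A-KD and 28.7 ± 0.50 RPKM in shCtrl, SD, n = 4 each; adjusted p = 0.0206, limma with the block). ID1, a target of the related BMP signals, had a log2 change of −0.55 and did not pass.

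**Figure D4:**
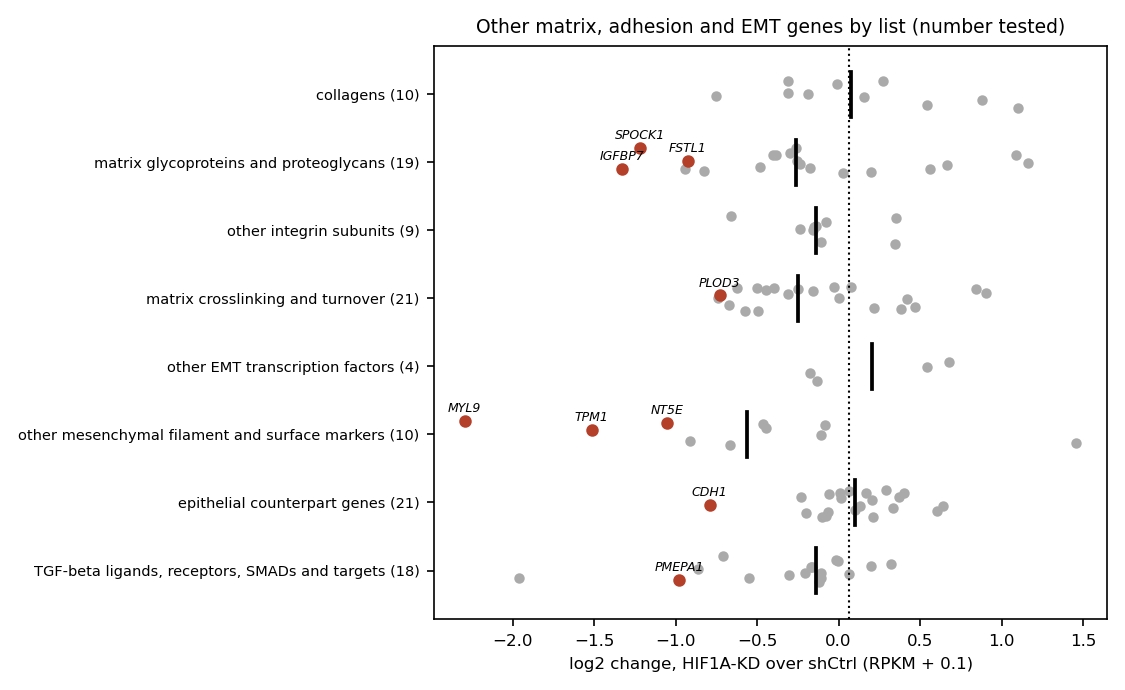
Log2 change of HIF1A-KD over shCtrl (horizontal axis, log2 of RPKM + 0.1) for the tested genes of 8 lists, with their number in brackets (1 gene of the TGF-beta list counts there and in the median and is not drawn), a black bar at each list's median and a dotted line at the median of all tested genes (0.064). Red genes, all named, were called with the library number as a block, and all 9 lie below 0.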

How the data were processed

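The submitters' processing notes name HTSeq 0.6.1, TopHat2 2.0.13, Bowtie2 2.2.3.0, Picard 1.129, SAMtools 1.3.1, FastQC 0.11.5 and bcl2fastq. They also name the builds GRCh38/hg38 and GRCh37/hg19 with no role for either, and contig names in the deposited table are of hg19. The sources used here do not say whether counting used strand. The values deposited by the authors are RPKM, although the table's name speaks of counts. Multiplying by the deposited gene length gave whole reads within 0.01 read for 100% of genes in each library, which gives the depths and the reads used by limma-voom. For 597 genes the length was unreadable, and 28 names had turned into dates. The authors' deposited comparison gives fold ratios, log2 ratios and p-values from a tool that the sources used here do not name. Its header does not say which group is on top. Its sign was that of HIF1A-KD over shCtrl for 100% of 466 genes that differed over 2-fold in mean RPKM, so it was read that way.

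The main test was limma 3.58.1 (R 4.3.3) with trend and robust moderation on log2(RPKM + 0.1), two-sided, for the 11899 genes that reached 0.5 RPKM in 4 or more libraries, with Benjamini-Hochberg adjustment over all of them and a threshold of 0.05. This scale understates changes of low genes. The labels do not say whether libraries came from separate cultures, so p-values measure only the spread between these libraries. Libraries of the same number deviated together across genes (correlations of 0.754, 0.730, 0.252 and 0.257 for numbers 1 to 4), all over 0.1, so the number was taken as pairing them; the labels do not state it. For numbers 3 and 4 this is uncertain, since HIF1A-KD 3 correlated more with shCtrl 4 (0.613) and HIF1A-KD 4 with shCtrl 3 (0.463). HIF1A-KD 2 and shCtrl 1 (0.120) also passed 0.1, so passing it does not by itself mark partners. The fits with and without the block were tested on simulated reads in which libraries of the same number shared an effect. That simulation assumed the pairing and so cannot check it. The genes, the lists and the motifs were chosen with earlier results of these data known. Genes named from lists were those called in either fit (at most 3 in each direction by smallest p) and the 2 most abundant, and 5 nearest to FN1 were named; 1 listed gene is counted in its list and not reported here by itself. Alternatives were the block, scaling, pseudocounts, filters, limma-voom, the split of libraries 1 and 2 from 3 and 4, and leaving out libraries.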

Additional observations from a re-analysis of the deposited data

Results flagged for a closer look

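A gap to the nearest library that was large against the range of its group marked 3 of 76 groups of 4 libraries. Chance marks about 1 in 20, so the number of flags was no more than chance gives. All 3 were HIF1A-KD 3, in FN1, COL1A1 and PRB1. PRB1 was named for its likeness to FN1, so its flag is not separate from that of FN1. FN1 held 20.9 RPKM there, against 7.90 to 8.81 RPKM in the other HIF1A-KD libraries. COL1A1 held 19.2 RPKM, against 14.1 to 14.8 RPKM in the others, and PRB1 held 3.40 RPKM, against 1.49 to 1.61 RPKM. HIF1A held 54.8 RPKM in that library, against 19.0 to 45.04 RPKM in the others, and its part in these values was not tested.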

How the results depend on the processing

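The unpaired count of called genes, 5, was 218 with the number as a replicate block, 102 with the split of libraries 1 and 2 from 3 and 4 as a term, 8 with median-of-ratios scaling, 3 with a pseudocount of 1 or of 0.01, 1 with no filter and 0 in libraries 1 and 2 alone. Leaving out libraries gave 0 to 3 unpaired and 33, 1, 195 and 182 with the block and without numbers 1 to 4. The count among the 9 genes, 1, was 5 with the replicate block, 3 with the split as a term, and 0 with no filter or in libraries 1 and 2 or 3 and 4 alone; leaving out libraries gave 0 to 1 unpaired and 0 to 5 with the block. The listed genes called, 0, were 9 with the block and 8 with the split, and 0 to 10 when libraries were left out. The 2 genes nearer to FN1 than a flat profile were 0 to 3 when 1 library was left out, the 0 being without HIF1A-KD 3, where the flat profile lay at 0.076. The causes were not tested. Of 792 log2 changes of named genes under alternatives, 694 kept side and direction, and 18 reversed, none of them called: in libraries 3 and 4 ITGAV (0.0087), COL7A1 (0.042) and ITGB1 (0.028); with the block and without a number COL7A1 (0.033 and 0.15), ITGB1 (0.014) and KRT5 (0.044). Leaving out 1 library gave −0.23 to 0.20 for COL7A1, −0.34 to 0.16 for ITGB1, −0.24 to 0.017 for CD44 and −0.19 to 0.036 for KRT5. Depth did not limit the 9 genes, the lowest holding 310 reads.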

Other observations

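Markers of other cell types were near 0 with 2 exceptions, VWF and CD68, named after their values were seen. The endothelial marker VWF held 12.6, 4.98, 1.39 and 1.47 RPKM in HIF1A-KD 1 to 4, against 15.3, 1.76, 1.126 and 0.65 RPKM in shCtrl 1 to 4, so it was highest in library 1 of both groups, while PECAM1 and CDH5 did not exceed 0.011 RPKM. The lysosomal gene CD68 held 19.0, 44.1, 55.3 and 85.7 RPKM in HIF1A-KD 1 to 4, against 23.5, 55.4, 115 and 90.9 RPKM in shCtrl 1 to 4, while the leukocyte genes PTPRC and CD3E were at 0 in all libraries.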
